A study of Mus musculus with 20 samples.

Results

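The regions described here are ATF4 peaks found in C2C12 cells after thapsigargin, with no counterpart in DMSO, that lie at the end of a single gene. ATF4 is a bZIP transcription factor whose translation rises in the integrated stress response, when the initiation factor eIF2 is phosphorylated. C2C12 is an established line of mouse myoblasts. The peaks were chosen by position: a line of the thapsigargin ATF4 list was taken when it shared less than 1 bp with any line of the DMSO ATF4 list and its centre lay within 1 kb of an end of exactly 1 protein-coding gene on chromosomes 1 to 19 and X of mm10. The rule found 1987 of the 8619 thapsigargin peaks (23.1%, 95% Wilson interval 22.2% to 24.0%), or 25.4% of the 7822 thapsigargin peaks without a DMSO overlap. They mark 1974 genes, of which 13 had 2 such peaks.

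The cells carried a wild-type genotype and were given 100 nM thapsigargin, an inhibitor of the SERCA calcium pump that drains calcium from the endoplasmic reticulum (ER) and so causes ER stress, or the solvent DMSO, each for 6 h. Binding was mapped by CUT&Tag, in which an antibody guides a transposase that cuts and tags the DNA beside the bound protein. ATF4 was profiled in 2 replicates per treatment, and the deposited lists hold 1 set of peaks per treatment, so no replicate error can be given and nothing here is a test between treatments. Peaks are listed by position alone, and read depth is unknown, so that a site missing from the shorter DMSO list (803 peaks) is not shown to be unbound in DMSO. Each interval is a 95% Wilson interval, which covers counting error alone. Since peaks and genes are not replicates, classes of peaks are set side by side as descriptions, with no p-value.

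ATF4 binds DNA as a dimer, often with a partner of the C/EBP family. The composite site read by that pair, called the CARE or amino acid response element, joins part of an ATF site to part of a C/EBP site and is known from genes such as Asns, Trib3 and Chac1. Other bZIP proteins read related palindromes: CREB and ATF factors the cAMP response element (CRE), JUN and FOS the AP-1 site. The ER stress factors ATF6 and XBP1 act at the ER stress response element (ERSE) together with NF-Y, which binds CCAAT.

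The first sequences are shown because they are promoters under peaks of 6 genes that were to be described whatever their values: Sesn2, a stress-induced inhibitor of mTORC1 signalling; Jun, the AP-1 subunit; Ern1, the ER stress sensor IRE1; Calr, the ER chaperone calreticulin; Dnajb9, an ER co-chaperone of BiP; and Nfe2l2, the antioxidant regulator NRF2. Each runs 5′ to 3′ along the gene from 250 bases before a RefSeq start site to 50 after it, in GRCm38.p6, and all 6 genes lie on the minus strand. Capitals mark matches on either strand to the CARE (TGATGNAA), the CRE (TGACGTCA), C/EBP (TTGCGNAA) and UPRE (TGACGTGG) sites, the AP-1 site (TGANTCA), GC boxes (GGGCGG) and the CCAAT box of NF-Y. They also mark the gapped ERSE, in which CCAAT is followed by any 9 bases and then by CCACG, and ERSE-II, in which ATTGG is followed by any 1 base and then by CCACG. The windows are chr4:132510407-132510706, chr4:95052173-95052472, chr11:106487747-106488046, chr8:84846882-84847181, chr12:44210019-44210318 and chr2:75704614-75704913, in the order below.
Sesn2: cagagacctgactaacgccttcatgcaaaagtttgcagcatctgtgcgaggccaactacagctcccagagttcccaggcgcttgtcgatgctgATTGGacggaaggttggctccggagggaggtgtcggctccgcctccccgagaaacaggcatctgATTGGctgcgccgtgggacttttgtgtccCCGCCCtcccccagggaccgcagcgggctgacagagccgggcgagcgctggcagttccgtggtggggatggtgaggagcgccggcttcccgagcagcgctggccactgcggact
Jun: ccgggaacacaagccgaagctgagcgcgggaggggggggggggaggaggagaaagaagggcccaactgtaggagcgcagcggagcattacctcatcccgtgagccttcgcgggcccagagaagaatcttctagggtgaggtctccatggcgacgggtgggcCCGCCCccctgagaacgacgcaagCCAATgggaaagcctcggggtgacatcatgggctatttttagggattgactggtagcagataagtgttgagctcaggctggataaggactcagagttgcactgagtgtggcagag
Ern1: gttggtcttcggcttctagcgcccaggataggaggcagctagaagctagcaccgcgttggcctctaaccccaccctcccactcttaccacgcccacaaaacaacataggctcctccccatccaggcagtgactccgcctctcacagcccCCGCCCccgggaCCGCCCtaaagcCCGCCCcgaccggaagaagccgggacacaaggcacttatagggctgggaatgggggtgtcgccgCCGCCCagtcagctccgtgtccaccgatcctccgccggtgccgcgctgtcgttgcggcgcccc
Calr: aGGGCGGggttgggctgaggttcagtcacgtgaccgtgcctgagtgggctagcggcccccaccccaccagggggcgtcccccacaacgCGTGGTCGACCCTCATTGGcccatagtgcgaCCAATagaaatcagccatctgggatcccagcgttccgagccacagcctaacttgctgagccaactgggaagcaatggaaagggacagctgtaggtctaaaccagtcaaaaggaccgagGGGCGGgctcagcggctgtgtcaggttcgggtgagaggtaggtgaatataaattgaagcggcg
Dnajb9: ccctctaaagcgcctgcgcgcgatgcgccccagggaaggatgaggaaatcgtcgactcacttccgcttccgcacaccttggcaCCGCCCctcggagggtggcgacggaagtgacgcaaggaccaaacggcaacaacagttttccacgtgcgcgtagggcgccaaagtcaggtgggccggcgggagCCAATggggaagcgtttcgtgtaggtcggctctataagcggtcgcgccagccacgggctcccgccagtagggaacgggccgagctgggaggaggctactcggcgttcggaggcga
Nfe2l2: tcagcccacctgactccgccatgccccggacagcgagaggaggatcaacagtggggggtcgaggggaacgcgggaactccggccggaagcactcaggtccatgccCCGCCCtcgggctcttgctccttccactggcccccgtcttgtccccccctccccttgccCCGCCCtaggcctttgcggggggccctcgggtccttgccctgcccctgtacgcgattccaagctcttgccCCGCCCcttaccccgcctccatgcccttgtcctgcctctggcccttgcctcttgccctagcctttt

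GC boxes were found in all 6 windows, from 1 in Sesn2, Jun and Dnajb9 to 4 in Ern1. CCAAT boxes were found in Sesn2, Jun, Calr and Dnajb9. The Calr window also held an ERSE, on the opposite strand and overlapping its first CCAAT box, from position -162 to -144, where 0 is the base of the start site. None of the 6 held the letters of a CARE, CRE, AP-1, C/EBP or UPRE site in this window, which covers only part of each peak.

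The second set is shown because these promoters do hold a CARE: they belong to the 4 widest and the 2 narrowest peaks of the class that were assigned to a gene start and whose promoter had the letters. Below them stand the CAREs of 3 genes whose peaks were shared with DMSO. Each line gives 101 bases along the gene, with the CARE in capitals. The windows are chr6:28421675-28421775 (minus strand), chr9:92249944-92250044 (plus), chr13:51846528-51846628 (plus), chr9:94669777-94669877 (plus), chr8:94666995-94667095 (plus), chr2:127792638-127792738 (minus), and for the shared peaks chr6:7693178-7693278 (minus), chr2:152344011-152344111 (minus) and chr2:119351003-119351103 (plus).
Gcc1: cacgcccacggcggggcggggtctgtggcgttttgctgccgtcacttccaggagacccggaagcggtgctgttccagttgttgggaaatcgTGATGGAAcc
Plscr1: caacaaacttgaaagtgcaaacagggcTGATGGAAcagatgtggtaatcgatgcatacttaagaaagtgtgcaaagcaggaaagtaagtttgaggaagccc
Gadd45g: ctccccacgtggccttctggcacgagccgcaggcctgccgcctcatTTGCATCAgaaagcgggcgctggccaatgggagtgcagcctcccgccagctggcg
Slc9a9: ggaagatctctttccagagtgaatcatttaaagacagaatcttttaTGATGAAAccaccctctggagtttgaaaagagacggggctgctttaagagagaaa
Arl2bp: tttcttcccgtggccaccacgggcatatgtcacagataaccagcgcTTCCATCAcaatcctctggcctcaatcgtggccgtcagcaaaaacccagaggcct
Mtln: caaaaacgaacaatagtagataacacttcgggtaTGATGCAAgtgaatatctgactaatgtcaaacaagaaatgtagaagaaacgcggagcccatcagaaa
Asns: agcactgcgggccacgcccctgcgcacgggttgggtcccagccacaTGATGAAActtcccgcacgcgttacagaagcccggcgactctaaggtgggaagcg
Trib3: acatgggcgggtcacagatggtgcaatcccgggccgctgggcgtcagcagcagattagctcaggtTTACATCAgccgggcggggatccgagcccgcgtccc
Chac1: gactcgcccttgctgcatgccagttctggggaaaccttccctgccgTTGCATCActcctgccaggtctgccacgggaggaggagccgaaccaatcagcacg

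Gadd45g, which encodes a growth arrest and stress protein, carried TTGCATCA from position -101 to -94, the same 8 letters as Chac1 from -193 to -186. Slc9a9, a sodium-proton exchanger gene, carried TGATGAAA from -69 to -62, the same letters as Asns from -23 to -16. The Slc9a9 positions count from a listed start inside the gene (94669892), so the match lay after the gene start used for the class (94669557). Slc9a9 also had an AP-1 match, from -96 to -90, which is left in lower case above. In Gcc1, a Golgi protein gene, the match TGATGGAA lay after the start site, from 40 to 47. In Mtln, which encodes a small mitochondrial protein, the letters lay outside the 469 bp peak, which overlapped another stretch of the window.

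The CARE was as common under these thapsigargin-only peaks as in promoters at large. Peaks of the class overlapped the promoter window of their own gene in 1434 cases, and 43 of these windows (3.0%, interval 2.23% to 4.01%) held the letters TGATGNAA, against 3.45% of all 21045 windows of protein-coding genes. Of the 181 windows under peaks shared with DMSO at gene ends, 38 did (21.0%, interval 15.7% to 27.5%). Shared peaks at gene ends here include those at ends of 2 or more genes, which the class leaves out. Thapsigargin-only peaks at ends of 2 or more genes had a CARE in 3 of 405 windows (0.741%, interval 0.252% to 2.15%). The stricter letters TGATGCAA were in 18 of 1434 windows (1.26%) under thapsigargin-only peaks, in 17 of 181 (9.39%) under shared ones and in 0.851% of all. Where the peak centre itself lay in the window, 22 of 544 windows (4.04%, interval 2.69% to 6.05%) of the class and 22 of 66 (33.3%, interval 23.2% to 45.3%) of shared peaks had a CARE. The 2 classes were thus separated by more than their counting error under each of these settings, and no replicate error is known.

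Shared peaks were also wider, and the part of width or depth in these shares was not tested. Among the thapsigargin-only windows the share with a CARE was 2.56% (9 of 352) in the narrowest quartile by peak width, 1.44% (5 of 347) and 3.87% (14 of 362) in the middle quartiles and 4.02% (15 of 373) in the widest. With peaks at or above the median width of the thapsigargin list alone, the shares were 4.13% (27 of 653) in the class and 22.9% (33 of 144) among shared peaks. With windows that lay wholly inside their peak, an alternative added after the data were seen, they were 3.36% (33 of 983) and 24.2% (37 of 153).

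The 43 genes with a CARE under or beside their peak form a mixed group, and in 39 of them the letters lay inside the peak. Besides those printed above, Creb5 (1493 bp), a CRE-binding bZIP gene, and Eif2s3x (1252 bp), the gene of a subunit of eIF2, belong to the lists described below. Named after their values were seen, Chrna1 (1485 bp) encodes the muscle acetylcholine receptor subunit, Inhbe (1147 bp) an activin subunit, and Yod1 (1382 bp) a deubiquitinase of ER-associated degradation. In the class the CARE lay a median of 156 bp from the peak centre (quartiles 86.0 and 335 bp, 43 peaks), and in shared peaks 133 bp (quartiles 60.9 and 230 bp, 38 peaks). It lay within 100 bp of the centre in 14 of 43 and in 13 of 38.

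What the promoters of the class did share was a CpG-rich composition. Their median GC content was 62.3% (quartiles 57.0% and 67.9%) and their median ratio of observed to expected CpG was 0.814, against 56.7% and 0.574 in all protein-coding windows. Promoters under shared peaks had 61.3% and 0.810. A GC box, the site of SP1-family factors, was in 74.3% of the class (1065 of 1434), 71.8% under shared peaks and 46.7% of all windows. The CCAAT box was in 46.3% of the class and 38.5% of all, the ETS core CCGGAA in 30.5% and 18.9%, and the NRF1 element GCATGCGC in 6.97% and 3.54%. The TATA box TATAAA was at 6.21% and 12.7%. This order was not kept in CpG-rich windows (GC of at least 55% and a CpG ratio of at least 0.6). There it was at 4.97% (53 of 1067, interval 3.82% to 6.44%) and 3.81% (interval 3.43% to 4.24%), and the intervals overlap.

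The CRE stood at 5.30% of the class (76 of 1434, interval 4.26% to 6.58%), 2.76% under shared peaks (5 of 181, interval 1.19% to 6.30%) and 2.26% of all windows. It was not particular to the class, as thapsigargin-only peaks at ends of 2 or more genes had it in 6.67% (27 of 405, interval 4.62% to 9.53%). The intervals of the class and the shared peaks overlap. The C/EBP site was in 2.16% of the class (31 of 1434, interval 1.53% to 3.05%), 0.552% under shared peaks (1 of 181, interval 0.0976% to 3.06%) and 0.969% of all. Its intervals in the class and under shared peaks overlap. Thapsigargin-only peaks at ends of 2 or more genes had it in 1.73% (7 of 405, interval 0.840% to 3.52%). The AP-1 site was at 4.88% in the class against 7.04% of all windows. In CpG-rich windows the 2 could not be told apart within counting error, with 3.66% (39 of 1067, interval 2.69% to 4.96%) against 2.95% (interval 2.62% to 3.33%). The UPRE, a site of XBP1 and ATF6, was found in 17 windows (1.19%, against 0.713% of all), the ERSE in 5 (0.349%, against 0.143%) and the ERSE-II in 3 (0.209%, against 0.0523%). For the UPRE, ERSE and ERSE-II alike, the interval of the class overlaps that of all windows. The remaining motifs were the E-box CACGTG (10.0% of the class, 7.91% of all), the antioxidant response core TGACNNNGC (17.9% and 13.0%) and the YY1 element AAGATGGC (4.32% and 3.07%).

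Base composition moved with these values, so they were also read in CpG-rich windows alone, a setting added after the data were seen. These made up 74.4% of the class, 72.4% of windows under shared peaks and 41.4% of all. Within them the GC box was at 82.3% in the class and 79.8% of all, and the NRF1 element at 7.69% and 6.01%. For both motifs the intervals overlap. The CRE was at 5.62% (60 of 1067, interval 4.39% to 7.17%) against 3.69% of all (interval 3.31% to 4.10%), the C/EBP site at 2.34% (interval 1.59% to 3.44%) against 1.22%, and the CCAAT box at 44.3% (interval 41.4% to 47.3%) against 35.0%. Under thapsigargin-only peaks at ends of 2 or more genes the CRE was at 8.01% (25 of 312, interval 5.49% to 11.6%). Several other motifs came close to the share of all CpG-rich windows: the UPRE was at 1.12% (12 of 1067, interval 0.645% to 1.96%) against 1.06%, the E-box at 12.0% against 11.6%, the YY1 element at 4.87% against 4.72% and the ETS core at 32.6% against 30.6%. The antioxidant response core was at 18.8% (interval 16.6% to 21.3%) against 15.4%. The ERSE was at 0.375% (4 of 1067, interval 0.146% to 0.960%) against 0.149% (interval 0.0873% to 0.255%), and these intervals overlap. The CARE was at 1.41% (15 of 1067, interval 0.854% to 2.31%) in the class, 17.6% (23 of 131, interval 12% to 25%) under shared peaks and 1.22% of all. A match is a run of letters and not a bound site.

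**Figure D1:**
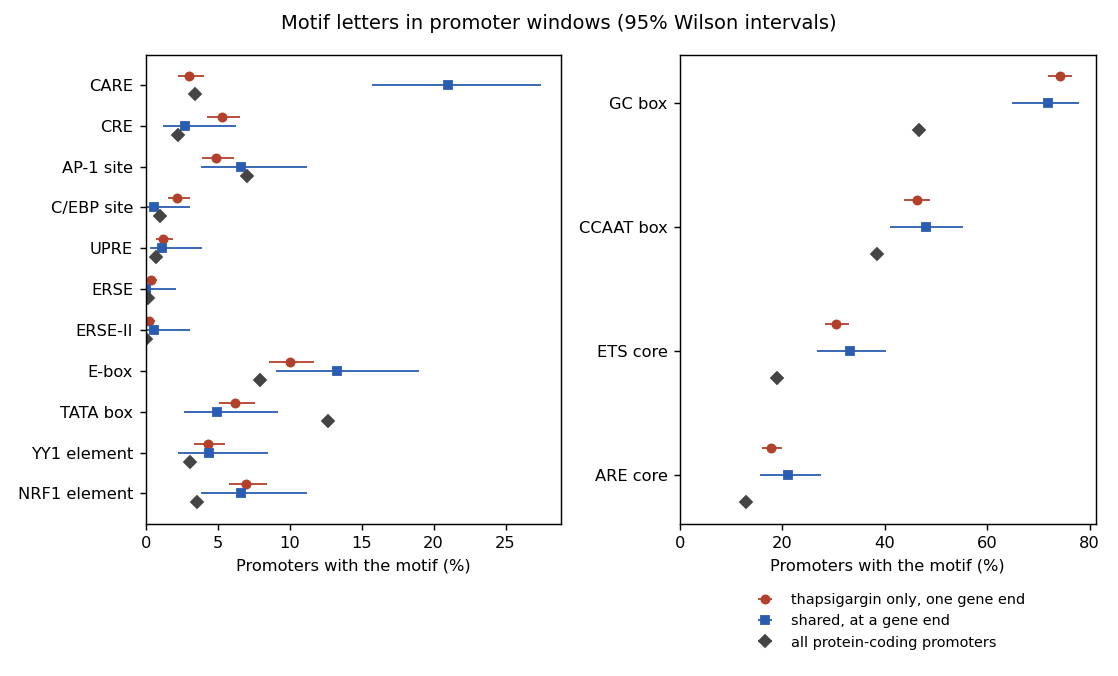
Share of promoter windows (x axis, %) that hold each motif (y axis), for thapsigargin-only peaks at a single gene's end (circles), peaks shared with DMSO at gene ends (squares) and all protein-coding promoters (diamonds), with 95% Wilson intervals as bars; ARE core is the antioxidant response core. The CARE stands at 3.0%, 21.0% and 3.45%, while the GC box is at 74.3% and 71.8% in the peak classes and at 46.7% overall.

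Nearly all of these peaks sat at the start of the gene and not at its 3′ end. The strand was known for 1611 peaks, and 1543 of them (95.8%, interval 94.7% to 96.7%) were nearer to the start, which leaves 68 at a 3′ end. Shared peaks at gene ends had 187 of 199 at the start (94.0%, interval 89.8% to 96.5%). The centres lay a little way into the gene, with a median of 112 bp after the start and quartiles at -88.0 and 315 bp, and 64.8% of them were downstream of it. Shared peaks had a median of 113 bp and 65.2% downstream, so the placement of the classes could not be told apart within counting error. Of the 1543 peaks, 866 (56.1%) were centred within 250 bp of the start.

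Measured against either end, the median distance of the centre was 233 bp. The peak covered the end itself in 1566 of 1987 cases (78.8%). The number of peaks thinned toward the limit of the rule, with 460 centred within 100 bp of the end and 32 between 900 and 1000 bp. Just inside the limit stood the peaks of Zswim8 (997 bp), Trim35 (995 bp) and Gcc1 (994 bp), and just outside it those near Amotl2 (1003.5 bp), Entpd2 (1004 bp) and Golph3 (1010 bp). The Zswim8 peak was 427 bp wide, whereas that of Trim35 was 2525 bp wide.

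**Figure D2:**
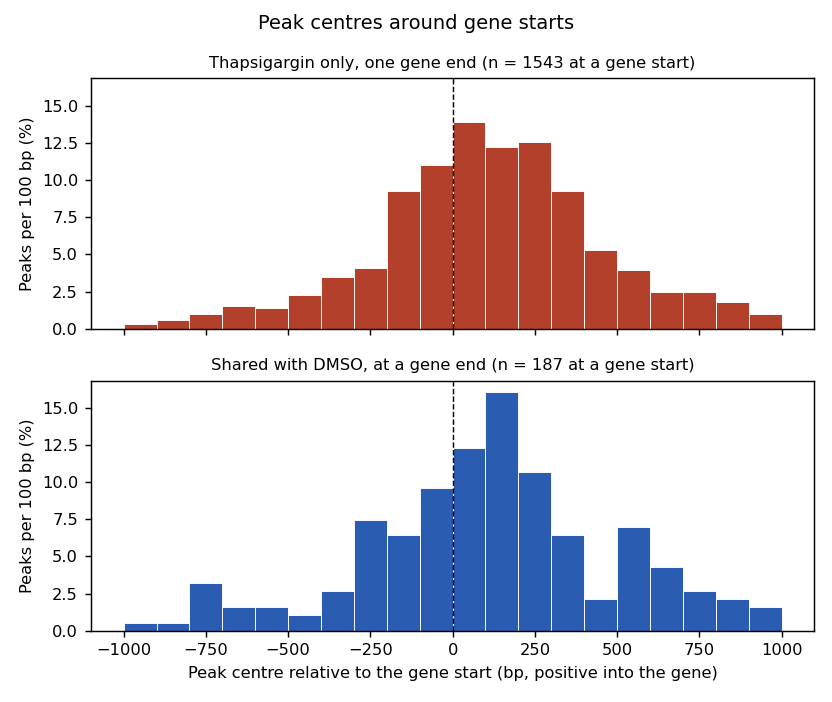
Share of peaks (y axis, % per 100 bp) by the position of the peak centre relative to the gene start (x axis, bp, positive into the gene), for 1543 thapsigargin-only peaks (top) and 187 shared peaks (bottom) assigned to a gene start. Both distributions centre just after the start, with medians of 112 and 113 bp.

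The 3′ end was the nearer one for few peaks. Their median width was 944 bp, against 978 bp at starts, and 7 of the 68 belonged to genes of at most 2 kb, in which both ends are close. The 1446 bp peak at Sars, the seryl-tRNA synthetase gene, was centred 201.5 bp beyond its 3′ end, while a 2106 bp peak shared with DMSO lay at the start. In all, 3 genes had both a thapsigargin-only peak and a shared peak near an end, and the others were Chd2, a chromatin remodeller gene, and Alyref2, an RNA export factor gene. The peaks of Chd2 lay at opposite ends, whereas both peaks of Alyref2 were centred upstream of its start. In several of the 13 genes with a pair of peaks, both ends were marked: Mknk2, a kinase of the translation factor eIF4E, had 1473 bp at the start and 1029 bp at the 3′ end, and H6pd, which makes NADPH in the ER, had 809 bp and 1228 bp. The widest pair was at Lgals1, the galectin gene, with 2026 bp and 1361 bp, at a gene whose strand was not known here. Mettl27, Tspyl2, Tinf2 and Vps26c also had a pair.

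Ends of noncoding genes were near some of the peaks. Within 1 kb of the centre, 365 of 1987 (18.4%, interval 16.7% to 20.1%) had the end of a noncoding gene as well, which was a long noncoding RNA gene for 302, a microRNA gene for 18, a tRNA gene for 17 and a small nucleolar RNA gene for 8. Shared peaks at gene ends had 35 of 234 (15%, interval 11% to 20.1%), and thapsigargin-only peaks at ends of 2 or more genes had 25 (4.83%, interval 3.29% to 7.03%). The genes themselves were longer than average, with a median of 25028 bp against 17329 bp in all protein-coding genes.

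In width the thapsigargin-only peaks at gene ends were the narrowest class by their median. It was 979 bp (quartiles 746 and 1276 bp, range 286 to 2766 bp), against 1048 bp at ends of 2 or more genes, 1018 bp inside genes and 1001 bp outside genes, all thapsigargin only, and 1391 bp for shared peaks at gene ends (quartiles 1103 and 1617 bp). The quartiles of the 4 thapsigargin-only classes overlap broadly. In the whole thapsigargin list the median was 1037 bp. Width is no measure of occupancy and also depends on depth. Peaks centred farther from the end were wider: the median was 968 bp within 200 bp of it (875 peaks) and 1244 bp between 800 and 1000 bp (91 peaks), with the lowest value, 879 bp, between 200 and 400 bp.

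**Figure D3:**
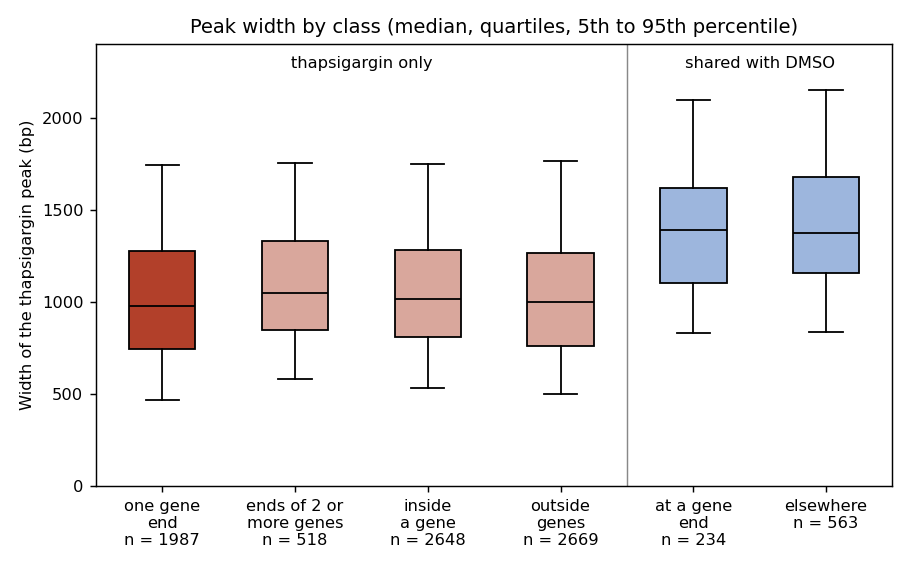
Width of thapsigargin peaks (y axis, bp) by class (x axis), with the median as a line, quartiles as the box and the 5th and 95th percentiles as whiskers. The class at a single gene's end has a median of 979 bp and overlaps the other thapsigargin-only classes, and both shared classes stand higher.

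The 15 widest peaks ran from 2766 to 2336 bp. Snai2, a repressor of epithelial genes, came first (chr16:14703723-14706488, 2766 bp, centred 746.5 bp from the gene end), followed by Ern1 (chr11:106487427-106490146, 2720 bp, centred 990.5 bp upstream of the start) and Jun (chr4:95050929-95053645, 2717 bp, centred 65.0 bp upstream). Wwtr1, the Hippo pathway coactivator TAZ, had 2638 bp (chr3:57574009-57576646), and Adamts1, a secreted matrix protease, 2548 bp. Klf13 (2523 bp) is a Krüppel-like factor, and Ddit4 (2372 bp) encodes REDD1, an mTORC1 inhibitor induced by stress. Mt2 (2396 bp) encodes a metal-binding metallothionein, Man2a1 (2386 bp) a Golgi mannosidase that trims N-glycans, Pdhb (2477 bp) a subunit of pyruvate dehydrogenase, and Ppm1d (2336 bp) a phosphatase of the DNA damage response. The others were Trim35 (2525 bp), Nme2 (2450 bp), Eapp (2445 bp) and Zfyve9 (2429 bp). At the other extreme, the narrowest peaks were at Cdkn2c, a cell cycle inhibitor (286 bp), Nudc (289 bp), Exo1 (293 bp), Tcf4 (294 bp) and Klrb1 (296 bp).

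Few of the peaks had a DMSO peak in the neighbourhood. The median gap to the nearest DMSO peak was 591856 bp, and 30 of 1987 (1.51%) had one within 10 kb. Wide gaps are no trait of the class, since its rule excludes DMSO overlap and the DMSO list is short. The other thapsigargin-only classes had larger median gaps: 610118 bp at ends of 2 or more genes, 683154 bp inside genes and 797077 bp outside genes. The nearest were at Alyref2 (382 bp), Dync1li1, a dynein chain gene (522 bp), and Gadd45a, a growth arrest gene (657 bp), followed by Prune2 (2097 bp) and Sesn2 (2300 bp). These few are sites where the DMSO list holds a peak beside and not under the thapsigargin peak. Another thapsigargin peak lay within 10 kb for 251 peaks (12.6%), against 12.4% of shared peaks at gene ends. By chromosome, the class made up between 17.3% of the thapsigargin peaks on chromosome 14 and 32.5% on chromosome X (37 of 114).

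Genes were then read in lists. A thapsigargin-only peak at its own end alone was found at 1974 of 21631 protein-coding genes (9.13%), any thapsigargin peak at 15.1% and a shared peak at 1.28%. The lists hold 791 genes, of which 164 had a peak of the class, and 21 of 27 lists stood above 9.13%. The interval lay wholly above 9.13% in 14 lists. It included 9.13% for the proteasome, RNA polymerase II and Mediator, lysosome, mitochondrial chaperone, BCL2, mesenchymal and amino acid transporter lists. The same held for every list that stood below 9.13%. Expression was not measured here, and the background includes genes that a myoblast may not use, so a share above it is a description of the list. Lists of general cell functions were above it too, with 9 of 39 splicing factor genes (23.1%) and 14 of 77 cytosolic ribosomal protein genes (18.2%). The proteasome list had 6 of 37 (16.2%, interval 7.65% to 31.1%). RNA polymerase II and Mediator had 5 of 33 (15.2%, interval 6.65% to 30.9%), and both of these intervals include the background.

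Genes of several ER functions were in the class. Of the ER chaperones and folding enzymes, 8 of 24 (33.3%) had a thapsigargin-only peak at their end alone, 6 had one that also lay at the end of another gene (4.79% of all genes) and none had a peak shared with DMSO. With ends of all gene types counted, 4 of 24 were in the class, against 7.45% of all genes. The widest were at Calr (1609 bp), Dnajb9 (1358 bp), Sdf2l1, a co-chaperone of the BiP complex (1181 bp), Txndc5, a disulfide isomerase (1153 bp), and Canx, calnexin (1071 bp). Calr (chr8:84846021-84847629) was centred 106 bp into the gene and Dnajb9 (chr12:44209322-44210679) 67.5 bp. Hsp90b1, the chaperone GRP94, fell outside the class because its 1589 bp peak lay at the ends of 2 or more genes.

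Of the ER-associated degradation genes, 6 of 23 (26.1%) were in the class, among them the ATPase gene Vcp (1302 bp) and the mannosidase-like Edem3 (1256 bp). Others were Syvn1 (834 bp), which encodes the HRD1 ligase, and Sel1l (573 bp) and Os9 (455 bp), which act with it. Among sensors and proteases of the unfolded protein response there were 5 of 12 (41.7%, and 3 of 12 with a 500 bp window): Ern1, Mbtps2 (1535 bp) and Mbtps1 (797 bp), which cleave ATF6, the ATF6 relative Creb3l2 (1276 bp), and Eif2ak3 (1138 bp), the eIF2 kinase PERK. Atf6 itself was not, as its 2450 bp peak overlapped a DMSO peak.

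The translocon, signal peptidase and N-glycosylation list had 11 of 39 (28.2%), with a median width of 771 bp. The signal peptidase subunits Spcs3 (1290 bp) and Sec11a (1118 bp), the oligosaccharyltransferase subunits Stt3a (998 bp) and Stt3b (979 bp), and Srp19 of the signal recognition particle (907 bp) were the widest. Of the genes of vesicle traffic between ER and Golgi, 9 of 36 (25%) were in the class, led by the GTPase gene Arf4 (1404 bp), the cargo receptor gene Lman2 (1056 bp), Yif1a (1055 bp), the coatomer gene Copb1 (1022 bp) and the COPII gene Sec23b (1021 bp). The Copb1 peak was at the 3′ end, centred 39930.5 bp after the start. Lman2 was centred 2.5 bp from its end. Both lists had 1 gene with a shared peak (2.56% and 2.78%, against 1.28% of all genes).

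Peaks of the class were also found at genes of transcription factors. Of 30 AP-1, CREB and other bZIP genes, 13 (43.3%) were in the class and 1 had a shared peak (3.33%, against 1.28% of all genes). Centred within 500 bp there were 9. AP-1 subunits were Jun, Fosb (2317 bp), Junb (1541 bp), Fosl2 (1088 bp) and Fos (722 bp), CREB and ATF2 relatives were Creb5, Atf7 (1243 bp), Creb1 (1147 bp), Atf2 (652 bp) and Crem (617 bp), and the antioxidant branch was Nfe2l2 (1485 bp) and its competitor Bach1 (891 bp). Tef (650 bp), a clock output factor, was the remaining one. Creb1 was centred 8 bp and Crem 3 bp from the gene end, while Fosb and Fosl2 were 735 and 794.5 bp away. Names past the 5 widest of a list were added after the values were seen.

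Of 17 Krüppel-like factor genes, 8 (47.1%) were in the class, which are all those of the list with any thapsigargin peak at an end. The widest after Klf13 were Klf16 (1515 bp), Klf6 (1270 bp), Klf11 (1237 bp) and Klf10 (923 bp). The circadian clock list had 6 of 17 (35.3%), with the repressor genes Cry2 (1706 bp), Per2 (1660 bp) and Per1 (842 bp), Bhlhe40 (1550 bp) and the nuclear receptor gene Nr1d2 (1162 bp). In the list of mesenchymal regulators and matrix genes 4 of 28 (14.3%) were in the class, and none when the window was 500 bp, against 7.95% of all genes. They included the widest and the fourth widest peak, Snai2 and Wwtr1, with Ccn2, a secreted target of YAP and TAZ (1581 bp), and Tead4, their DNA-binding partner (868 bp).

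Genes of translation, autophagy and redox defence followed. The translation factors had 14 of 36 (38.9%), with the helicase genes Eif4a1 (1903 bp) and Eif4a2 (1349 bp), Eif3e (1489 bp), Eef1a1 (1443 bp) and Eif3d (1277 bp). A shared peak was at 3 of the 36 (8.33%), which is also above the 1.28% of all genes. The autophagy genes had 11 of 32 (34.4%), with Wipi2 (1543 bp), Gabarapl2 (1290 bp), Rb1cc1 (1229 bp), Calcoco1 (1083 bp) and Atg5 (1064 bp). Becn1 was not in the class, since its 1748 bp peak overlapped a DMSO peak. The antioxidant genes had 6 of 19 (31.6%, and 3 of 19 with all gene types): Gclm of glutathione synthesis (1710 bp), Txn1 (1592 bp), Srxn1 (1137 bp), Sod2 (818 bp), Prdx1 (721 bp) and Nqo1 (688 bp). The lysosome list had 4 of 33 (12.1%) and the mitochondrial chaperones 3 of 16 (18.8%). The BCL2 family had 3 of 19 (15.8%), the death effectors Bad (1239 bp), Bmf (780 bp) and Bbc3 (569 bp). The Bad peak was at the 3′ end, centred 9920 bp after the start. The respiratory chain had 5 of 55 (9.09%), next to the background.

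In 4 lists that hold classic ATF4 targets, shared peaks, which 1.28% of all genes had, were the more frequent kind. Of the cytosolic aminoacyl-tRNA synthetase genes 1 of 20 (5.00%) was in the class, which was Sars, and 12 had a shared peak. The amino acid synthesis and one-carbon genes had 2 of 24 (8.33%), Got2 (1105 bp) and Glul (648 bp), with 11 shared. The count was 4 of 24 when overlap with DMSO counted from 50% of the peak, above the 9.33% of all genes under that rule. The amino acid transporters had 3 of 17 (17.6%), Slc7a5 (1891 bp), Slc7a6 (985 bp) and Slc3a2 (912 bp), with 5 shared, and the count was 1 of 17 with all gene types and 5 of 17 with a 3 kb window. The regulators of the integrated stress response were divided. Of 28 genes 7 (25%) were in the class, namely Ddit4, Trib1 (2239 bp), Sesn2 (1352 bp), the autophagy receptor gene Sqstm1 (1116 bp), the amino acid sensor kinase gene Eif2ak4 (1021 bp), Cebpd (752 bp) and Gadd45a (510 bp), and 10 had a shared peak. The mitochondrial synthetases, by contrast, had no shared peak, and 1 of 17 (5.88%), Nars2 (461 bp), was in the class. For both synthetase lists and the amino acid synthesis genes, the interval of the share in the class includes the 9.13% of all genes.

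None of 35 genes of skeletal muscle identity, which include the myoblast markers Myod1, Myf5, Des, Cdh15 and Itga7, had a peak of the class, nor had any of 28 markers of other cell types. With a 3 kb window, 1 of 35 and 1 of 28 had one, against 10.2% of all genes. At these list sizes the interval of a count of 0 reaches up to 9.89% for the muscle genes and 12.1% for the other markers. Both intervals include the 9.13% of all genes. An ATF4 peak does not report expression, so this is no check of the cell type.

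**Figure D4:**
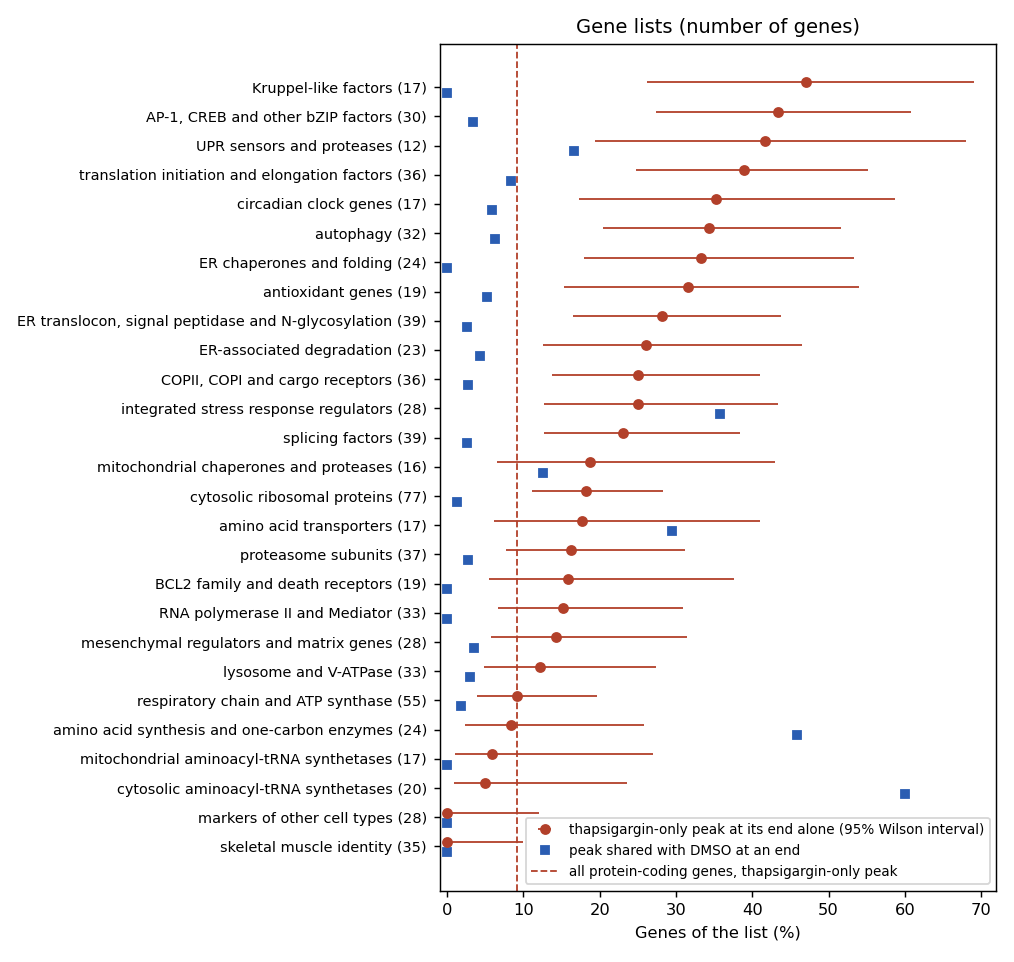
Share of the genes of each list (x axis, %; number of genes in brackets) with a thapsigargin-only peak at their end alone (circles, with 95% Wilson intervals) and with a peak shared with DMSO at an end (squares); the dashed line is the 9.13% of all protein-coding genes. Krüppel-like, bZIP and ER lists lie to the right for thapsigargin-only peaks, as do the translation factor, clock, autophagy and antioxidant lists. Splicing factor and ribosomal protein genes also lie right of the line. The cytosolic synthetases, amino acid synthesis genes, transporters and stress response regulators lie farther right for shared peaks.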

How the data were processed

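CUT&Tag libraries of C2C12 cells were made with a commercial kit, as the labels' protocols state. Of the 20 samples in 10 groups, the 2 ATF4 groups are used here and 8 groups are not used. The authors deposited 1 ATF4 list per treatment, holding chromosome, start and end of each peak with no score or height. Per the submitters' processing notes, MACS2 2.2.7.1, Trim Galore 0.6.10 and Bowtie2 were used with build mm10, in roles they do not give. The peak threshold, any control library and the handling of replicates are not stated there, so depth and its precision are unknown.

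Genes came from RefSeq for GRCm38.p6, to which mm10 corresponds (21631 protein-coding genes). Promoter sequences and strand came from the RefSeq promoter table, which matched 17274 of these genes and 1611 of the 1987 peaks. The window of a peak is the one of its gene that it overlaps by at least 1 bp, with the start nearest to the centre; 1434 peaks had one. Motifs were searched on both strands, and 16 were tried. CCAAT boxes overlap ERSE matches by construction, as TGATGNAA includes TGATGCAA. Printed coordinates count from 1.

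The members, the 27 lists (all symbols matched) and the named genes were chosen with earlier results of these data known. The rule names the 15 widest peaks, 10 genes in any case, the 5 widest per list, up to 8 genes with a pair of peaks, 3 peaks on each side of the limit, the 4 widest and 2 narrowest peaks with a CARE, the 5 narrowest, the 5 nearest to DMSO and up to 6 genes with both classes. A few genes under this rule are left out of the text. A stricter list was planned by score or width; the lists hold no score, so width was used. Software was matplotlib 3.10.9, scipy 1.17.1, pandas 2.3.3, numpy 2.4.6 and Python 3.11.15. Assignment and motif search were tested on simulated data (seed 11).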

Additional observations from a re-analysis of the deposited data

How the results depend on the processing

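No paired analysis was possible because each treatment has a single list with no replicate values, so a replicate could not be left out or used as a block either. The number of peaks in the class was 1987 and ranged from 1622 to 2254 under other overlap rules, windows and gene sets; it was 878 in the wider part of the thapsigargin list (4310 peaks by width), which holds fewer peaks by construction, with a median width of 1310 bp in place of 979 bp and 76 listed genes in place of 164. The share at gene starts was 96.9% with a window of 500 bp, 94.1% with the distance from the peak edge and 89.7% with 3 kb, in place of 95.8%. The share of promoters with a CARE, 3.0%, was 1.26% with TGATGCAA, 4.04% with the peak centre in the window, 4.13% in the wider part of the list and, chosen after seeing the data, 1.41% in CpG-rich promoters, with shared peaks at 9.39%, 33.3%, 22.9% and 17.6%; the cause of these shifts was not tested. Of 189 alternative list counts, 154 stayed within 1.5 times; 16 lists were above the share of all genes under every setting, 2 were below it and 9 changed side. The 9 are the amino acid synthesis genes, the amino acid transporters, the cytosolic and the mitochondrial synthetases, the mesenchymal list, the respiratory chain, the lysosome list, the mitochondrial chaperones and RNA polymerase II with Mediator. For the last 3 and the cytosolic synthetases the change came in the wider part of the list alone, where 4.05% of all genes had a peak of the class.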
